A study of Rattus norvegicus with 10 samples.

Results

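Liver libraries of diabetic rats were compared here by how much messenger RNA of Dbp, an output gene of the circadian clock, each one held. The FPKM (a level corrected for transcript length and library size) of the 6 Dbp isoforms was summed in each library, and all 10 libraries of the series fell on 1 of 2 sides of a threshold of 10 FPKM. Members were thus chosen by the measured level of Dbp alone. The high side holds 5 libraries, SG 1, SG 3, SHAM 1, SHAM 2 and SHAM 3, and the low side holds 5, SG 2, SG 4, SG 5, SHAM 4 and SHAM 5. SG stands for sleeve gastrectomy, an operation that removes most of the stomach, and SHAM for a sham operation. Both operations therefore sit on each side, with 2 SG and 3 SHAM libraries high and 3 SG and 2 SHAM libraries low. All animals were wild type Wistar rats with diabetes induced in the same way, by 4 weeks on a diet with 60% of its calories as fat and, after a fast of 16 hours, 1 injection of streptozotocin, a beta cell toxin, at 35 mg/kg. Rats whose glucose exceeded 16.7 mmol/L after 3 days were assigned at random to the operations, with weights matched. The SG labels give 3 months after surgery and the SHAM labels give no time, and no source used here gives the hour at which each liver was collected. The sides are not a treatment: they were set by a measured gene, so a p-value below describes how a gene separated along this split of these samples. The labels do not say that each library came from its own rat.

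Dbp set the sides and is itself left out of every count of genes that passed. Its level enters again as the term of an alternative fit and in correlations with Dbp. Neither of these is independent of the split. Its level was 81.1 FPKM in SG 3 and 83.6 in SHAM 2, then 22.7 in SHAM 1, 21.8 in SG 1 and 20.5 in SHAM 3, the lowest of the high side. The highest of the low side was SHAM 5 at 4.63 FPKM, followed by SG 2 at 4.20, SG 4 at 3.42, SG 5 at 3.23 and SHAM 4 at 2.34. The high side is thus made of 2 libraries near 80 FPKM and 3 near 20, with a gap down to the low side. The gene lies at chr1:101687855-101692896 on the plus strand of Rnor_6.0, the rat build of the deposited table.

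The liver clock is a feedback loop of transcription factors. CLOCK or its relative NPAS2 pairs with BMAL1, the product of Arntl, and the pair switches on genes that carry E-boxes, among them the Per and Cry genes, Nr1d1, Nr1d2, Ciart and Dbp. PER and CRY proteins then block the pair, and the nuclear receptors NR1D1 and NR1D2 (REV-ERB alpha and beta) repress Arntl, Npas2 and Clock through ROR elements. DBP, with its relatives TEF and HLF, is a PAR bZIP transcription factor that binds D-boxes in genes of liver metabolism, where NFIL3 competes with it. In liver the messenger RNA of Dbp rises and falls strongly over the day, opposite in phase to Arntl and Npas2.

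Total estimated counts ran from 65824088 to 85520959 per library on the high side and from 78862252 to 92110190 on the low side (exact permutation test, two-sided, p = 0.0794, adjusted over 4 library measures 0.159). The 20 most abundant genes took 21.4 ± 0.646% of counts on the high side and 23.1 ± 1.02% on the low side (SD, n = 5 each), with an exact permutation p of 0.0238 and an adjusted p of 0.0952, where the smallest p this design allows is 0.00794. Hepatocyte markers fitted the labelled tissue in every library, with summed levels of 35335 to 52072 FPKM on the high and 35929 to 49769 on the low side. SG 2 and SHAM 5, both low, stood apart in macrophage and Kupffer cell markers (727 and 730 FPKM summed, against 275 to 445 in the other 8), and SHAM 5 also in interferon response genes (1316 FPKM summed, against 288 to 582 in the other 9).

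Across 10988 genes with a mean of at least 1 FPKM, 210 differed between the sides at an adjusted p under 0.05 in edgeR's quasi-likelihood test with Benjamini-Hochberg adjustment, which is 1.91% of those tested. Of these, 126 were higher on the high side (1.15%) and 84 were lower (0.764%), 55 and 41 of them by more than 2-fold. The FPKM values of the sides did not overlap for 182 of the 210, and for 482 of all genes tested (4.39%), 236 with the high side above (2.15%) and 246 with it below (2.24%). An unadjusted edgeR p under 0.05 was found for 1939 of the 10988 genes, the background for such counts in the lists below. DESeq2 called 824 of the 10988 genes and limma on log2(FPKM + 0.5) 169, the backgrounds for list counts by those tools. Log2 fold changes of all tested genes centred on 0.001 (median), and their 95% confidence intervals reached 0.341 to each side of the estimate (median). The count of called genes was 89 without SHAM 1, 110 without SHAM 2, 116 without SG 4, 121 without SHAM 5, 128 without SHAM 4 and 132 without SG 3, and 144 to 182 without any of the other 4. Without both SG 2 and SHAM 5 the count was 76 (0.692%), and 65 of these were among the 210. With the operation as a covariate it was 147 (1.34%), 94 higher (0.855%) and 53 lower (0.482%), and with log2 Dbp as a continuous term 206 (1.87%), of which 109 were among the 210.

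**Figure D1:**
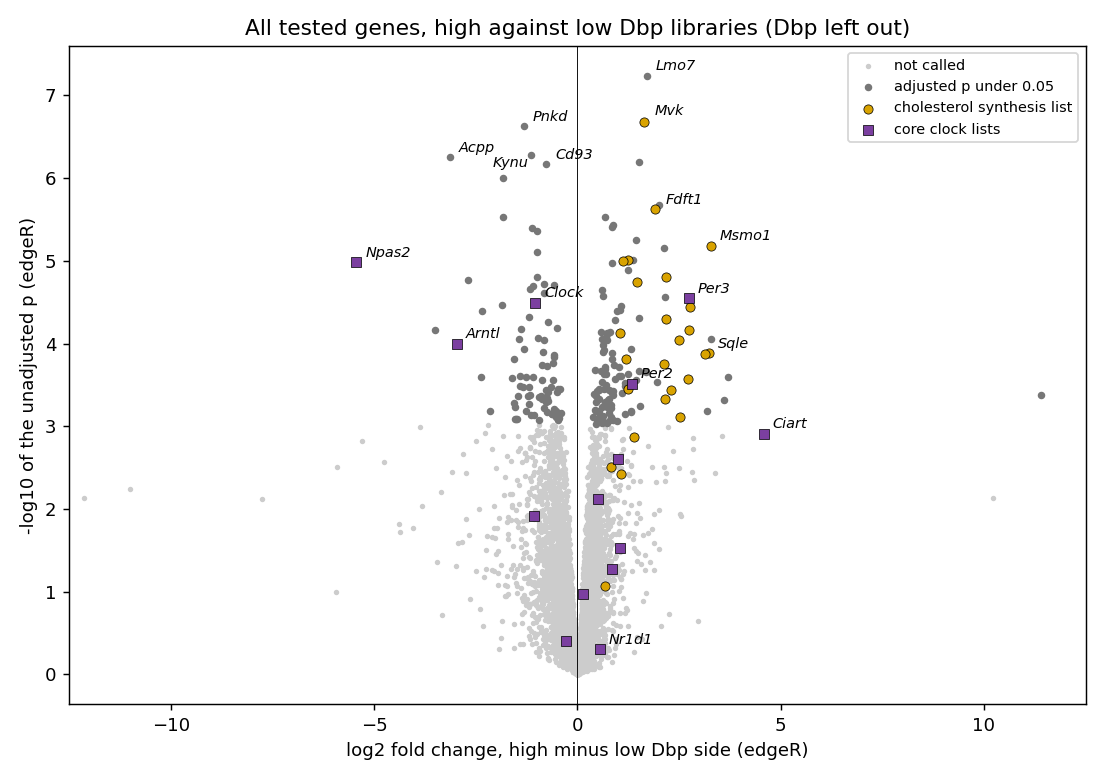
Each point is 1 of 10988 tested genes, with the log2 fold change (high minus low Dbp side) on the x axis and -log10 of edgeR's unadjusted p on the y axis. Genes of the cholesterol synthesis list (yellow) all lie on the right, and the core clock genes (purple squares) lie on both sides, with Npas2, Arntl and Clock on the left and Per3, Per2 and Ciart on the right.

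In the positive arm of the clock, whose genes peak late at night in rodents, 3 of 6 tested members fell in edgeR, Npas2, Arntl and Clock, while 0 rose and 3 did not pass. The share that fell among all genes was 0.764%. Arntl had 1.23, 0.211, 1.62, 0.438 and 0.927 FPKM in the high libraries SG 1, SG 3, SHAM 1, SHAM 2 and SHAM 3, and 7.16, 7.91, 7.00, 7.22 and 5.62 in the low libraries SG 2, SG 4, SG 5, SHAM 4 and SHAM 5. The sides did not overlap, and the lowest levels were those of SG 3 and SHAM 2, the libraries with the most Dbp. The log2 fold change was -2.97 ± 0.49 (SE), with an adjusted p of 0.0157 in edgeR. The high-side mean of Arntl was 0.884 FPKM, so it met the filter of 1 FPKM only through the low side.

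Npas2 was nearly silent on the high side, at 0.039, 0.146, 0.017, 0.015 and 0.016 FPKM in the same order, and had 1.06, 2.01, 2.46, 4.06 and 1.86 FPKM in the low libraries. Its log2 fold change was -5.43 ± 0.70 (SE, edgeR adjusted p = 0.00463), the widest of the core clock genes. The high-side mean of Npas2 was 0.047 FPKM, so it met the filter of 1 FPKM only through the low side. The size of its fold rests on these values near 0. Clock stood at 3.88, 2.59, 4.29, 2.19 and 4.11 FPKM against 5.57, 6.21, 7.22, 6.49 and 6.13, again without overlap, with a smaller difference (-1.03 ± 0.15 SE, edgeR adjusted p = 0.00861). All 3 passed with any single library left out. Without both SG 2 and SHAM 5, Clock and Npas2 passed and Arntl stood at -3.09 with an adjusted p of 0.0614 (edgeR). With only reference isoforms summed, 1 of 4 tested members of the list was called lower, Clock (-1.52, edgeR adjusted p = 0.015). Arntl and Npas2 did not enter that fit, so their calls rest on sums that include assembled isoforms.

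Nfil3, which encodes a repressor at D-boxes, had 4.31 to 19.1 FPKM on the high side and 10.3 to 28.9 on the low side, and its log2 fold change of -1.07 ± 0.36 (SE) did not pass (edgeR adjusted p = 0.147). Cry1, a late member of the loop, stood at -0.29 ± 0.32 with overlapping sides (edgeR adjusted p = 0.714). Rora, an activator at ROR elements, had 10.5 to 13.4 FPKM on the high and 9.24 to 12.2 on the low side (edgeR adjusted p = 0.396).

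In the negative arm, whose genes peak by day to dusk, 2 of 8 tested members rose in edgeR, Per3 and Per2, and 0 fell, while all 8 had a positive log2 fold change with a median of 1.02. The share that rose among all genes was 1.15%. Per3 had 16.1, 24.2, 14.7, 28.9 and 11.6 FPKM in SG 1, SG 3, SHAM 1, SHAM 2 and SHAM 3, against 4.03, 2.16, 4.45, 1.59 and 5.03 in SG 2, SG 4, SG 5, SHAM 4 and SHAM 5. Its highest low-side value, in SHAM 5, was less than its lowest high-side value, in SHAM 3, and the difference was 2.74 ± 0.39 (log2, SE, edgeR adjusted p = 0.00781).

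Per2 stood at 7.03, 11.3, 9.19, 8.37 and 7.29 FPKM on the high side and at 1.77, 4.21, 3.64, 2.92 and 3.80 on the low side. The sides did not overlap (1.34 ± 0.26 SE on the log2 scale, edgeR adjusted p = 0.0291). The call of Per2 was near the threshold: with 1 of SG 1, SG 3, SG 5, SHAM 1, SHAM 2, SHAM 3 or SHAM 4 left out it had an adjusted p of 0.0506 to 0.0663. Without both SG 2 and SHAM 5 the list again had 2 members called. With only reference isoforms summed, 0 of 7 tested members were called higher. Per3 stood at 2.645 there (edgeR adjusted p = 0.063), and Per2 did not enter that fit.

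Ciart, a repressor of the BMAL1 pair, split the high side. It had 4.04 FPKM in SG 3 and 5.55 in SHAM 2, but 0.559 in SG 1, 0.193 in SHAM 1 and 0.723 in SHAM 3, and it lay between 0.0 and 0.162 in the low libraries. The sides did not overlap, the log2 fold change was 4.58 ± 1.05 (SE), and the gene did not pass in edgeR (adjusted p = 0.0565) while it did in DESeq2 (adjusted p = 1.84e-05). With a low-side mean of 0.078 FPKM, Ciart met the filter of 1 FPKM only through the high side.

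Nr1d2 stood at 6.21 to 9.78 FPKM on the high and 2.29 to 4.94 on the low side, also without overlap, and did not pass in edgeR (0.99 ± 0.25 SE, adjusted p = 0.074; DESeq2 adjusted p = 0.00435). Its relative Nr1d1 showed another order: 28.6 FPKM in SG 3, 21.5 in SHAM 2 and 1.86 to 5.42 in the other 3 high libraries, with 13.7 in SHAM 5, 13.1 in SG 5, 8.31 in SG 2, 3.39 in SHAM 4 and 1.56 in SG 4. For Nr1d1 the sides overlapped over most of their range, and its difference of 0.56 ± 0.79 (SE, edgeR adjusted p = 0.776) was -0.04 without SG 3. Per1, whose product works beside PER2, had 5.75 to 13.9 FPKM on the high side and 1.898 to 8.19 on the low side (edgeR adjusted p = 0.227). Cry2, a partner of the PER proteins, stood at 0.50 ± 0.15 (SE, edgeR adjusted p = 0.121) and Bhlhe40, another repressor at E-boxes, at 0.86 ± 0.39 (adjusted p = 0.289), both with overlap.

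**Figure D2:**
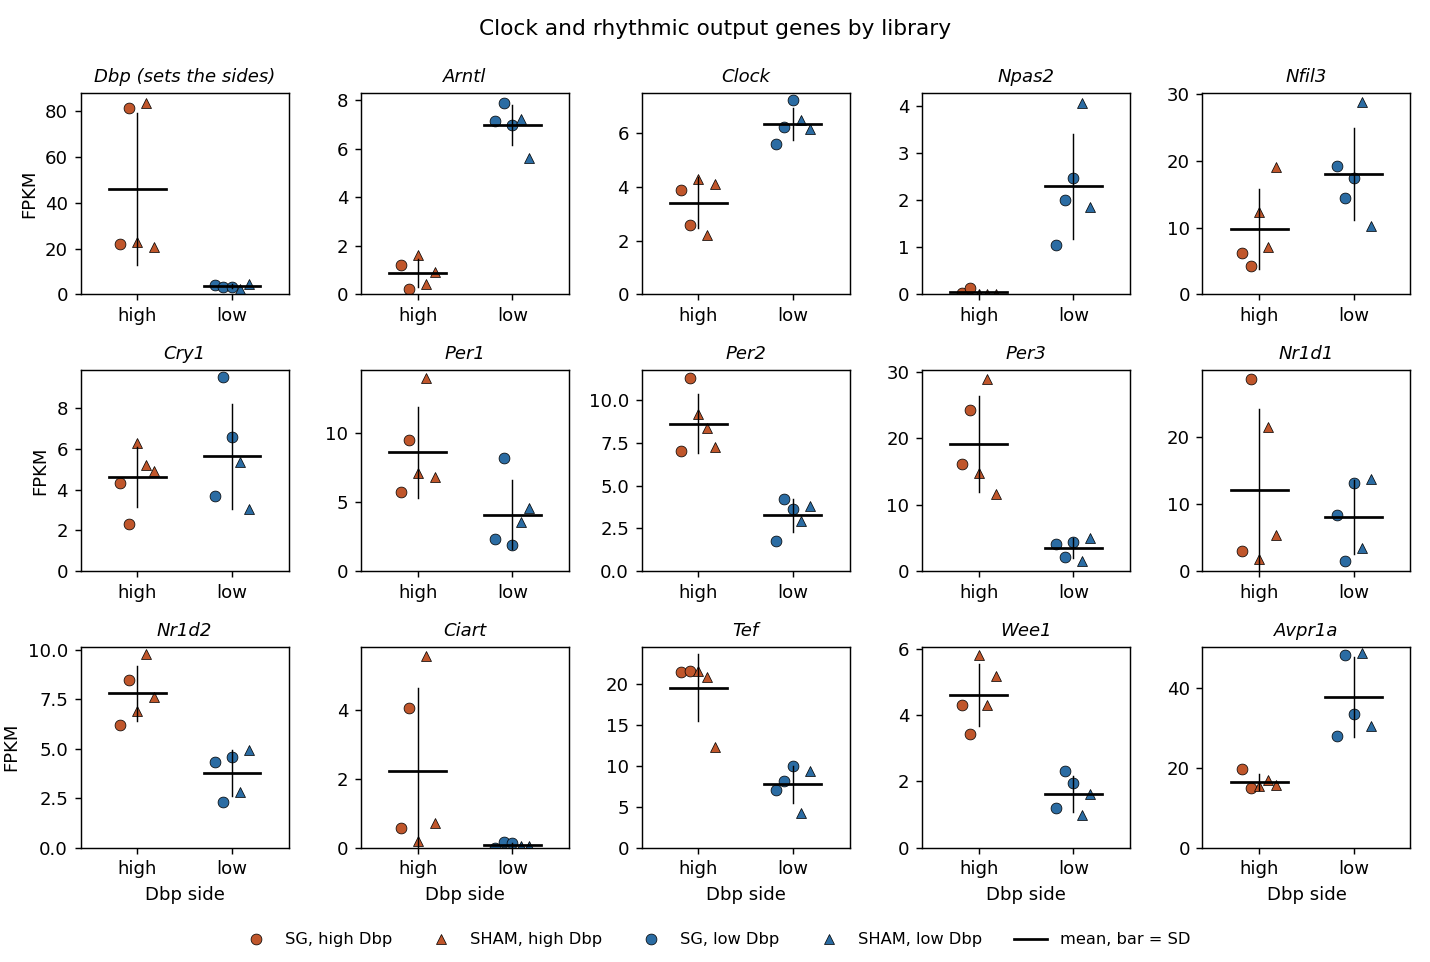
FPKM (y axes, each from 0) of Dbp and 14 clock or rhythmic output genes in the high and low Dbp libraries (x axes). Circles are SG and triangles SHAM libraries, the thick line is the mean and the thin bar the SD of 5 libraries. Arntl, Clock, Npas2, Per2, Per3, Nr1d2, Ciart, Tef, Wee1 and Avpr1a do not overlap between sides, whereas Nfil3, Cry1, Per1 and Nr1d1 do.

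Kinases and ubiquitin ligases that set the pace of the loop by marking PER and CRY proteins did not differ by the test. Of 10 tested members 0 passed in edgeR, in DESeq2 or in limma, and 1 had an unadjusted p under 0.05 in edgeR, the AMP-activated kinase subunit gene Prkaa2 (0.29 ± 0.12 SE). Others were Csnk1d (-0.05), Csnk1e (0.23), Csnk2a1 (0.02), Csnk2b (0.10), Btrc (-0.10), Fbxw11 (0.08), Gsk3b (-0.02) and Prkaa1 (0.21), all log2 fold changes. These genes encode casein kinases, F-box proteins of the SCF ligase, a glycogen synthase kinase and the other catalytic subunit of the AMP-activated kinase. The edgeR adjusted p-values of the 10 were 0.257 to 0.956.

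Promoter windows of called clock and rhythmic output genes were searched because the loop acts through short elements near the start site. Only windows that held a match to an element marked below are printed. The windows come from RefSeq on build GRCr8, which is not the build of the deposited table, and run from 250 bases before to 50 bases after the annotated start. Capitals mark a match to CACGTG (E-box), TTATGTAA (D-box) or the ROR element (by name), each searched on both strands.
Arntl (RefSeq Bmal1, chr1:176766078-176766377, plus strand): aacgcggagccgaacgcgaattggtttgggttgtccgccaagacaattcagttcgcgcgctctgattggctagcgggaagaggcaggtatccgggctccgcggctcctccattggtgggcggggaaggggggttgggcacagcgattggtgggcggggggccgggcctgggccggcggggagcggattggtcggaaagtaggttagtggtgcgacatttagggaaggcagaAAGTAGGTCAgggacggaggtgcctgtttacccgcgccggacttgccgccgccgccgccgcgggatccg
Per2 (chr9:99496944-99497243, minus strand): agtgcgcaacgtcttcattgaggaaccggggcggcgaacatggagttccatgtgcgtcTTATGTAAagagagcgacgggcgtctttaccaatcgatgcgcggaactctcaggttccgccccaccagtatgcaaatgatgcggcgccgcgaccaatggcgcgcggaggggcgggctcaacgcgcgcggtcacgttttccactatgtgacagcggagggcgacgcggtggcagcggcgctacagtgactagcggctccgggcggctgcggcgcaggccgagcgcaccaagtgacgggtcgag
Tef (chr7:115206577-115206876, plus strand): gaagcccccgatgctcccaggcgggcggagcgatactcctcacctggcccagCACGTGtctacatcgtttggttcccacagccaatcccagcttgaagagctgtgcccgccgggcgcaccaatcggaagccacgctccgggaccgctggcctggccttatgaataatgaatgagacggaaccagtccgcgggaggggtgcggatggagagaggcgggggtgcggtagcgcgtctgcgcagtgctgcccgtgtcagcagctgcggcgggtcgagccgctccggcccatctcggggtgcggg
The ROR element in the Arntl window starts 19 bases before the annotated start, the D-box of Per2 192 bases before it, and the E-box of Tef 198 bases before it. Among the 10 members of the clock and rhythmic output lists that passed the test, 9 had a window, and 1 window each held an E-box, a D-box and a ROR element. Of all 33469 windows 6.42% held the E-box, 0.893% the D-box and 0.245% the ROR element. A match is a description of the sequence.

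Rhythmic outputs of the liver clock, including the PAR bZIP relatives of Dbp, were divided. Of 37 tested members 3 rose (Wee1, Tef and Gys2), 2 fell (Avpr1a and Pdk4) and 32 did not pass, with a list median of 0.14. Among all genes 1.15% rose and 0.764% fell. Tef had 21.4, 21.6, 21.6, 20.8 and 12.3 FPKM in SG 1, SG 3, SHAM 1, SHAM 2 and SHAM 3, and 7.03, 8.13, 10.04, 4.24 and 9.33 in SG 2, SG 4, SG 5, SHAM 4 and SHAM 5. In contrast to Dbp, Tef was level in 4 of the 5 high libraries and lower in SHAM 3, still above all low libraries. Its log2 fold change was 1.45 ± 0.27 (SE, edgeR adjusted p = 0.0272), and the adjusted p was 0.0526 to 0.0605 without 1 of SG 2, SG 3, SG 4, SHAM 1 or SHAM 2. Hlf, the remaining relative, stood at 0.73 ± 0.19 (SE) with overlap and did not pass (edgeR adjusted p = 0.0758). It was singled out after its values were seen.

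Wee1, a kinase that holds cells before mitosis and a known clock target in liver, had 3.41 to 5.82 FPKM on the high side and 0.983 to 2.32 on the low side (1.52 ± 0.23 SE on the log2 scale, edgeR adjusted p = 0.0109). Avpr1a, the liver vasopressin receptor, had 14.9 to 19.7 FPKM on the high and 28.0 to 48.7 on the low side, and fell by 1.19 on the log2 scale (SE 0.18, edgeR adjusted p = 0.0109). Neither range reached the other. Without both SG 2 and SHAM 5, Wee1 stood at 1.43 with an adjusted p of 0.0712 in edgeR, and Tef, Gys2 and Pdk4 stood at adjusted p-values of 0.088, 0.0638 and 0.14.

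Across the 10 libraries the genes whose log2 level followed log2 Dbp most closely were Timeless (Pearson r = 0.984), Kalrn (0.981), F11r (0.972), Per3 (0.964), Map7 (0.949), LOC294154 (0.944), Hsd17b2 (0.939), Tom1l1 (0.939), Cfap410 (0.936) and Zfyve9 (0.935). Among the 5 lowest correlations were those of Arntl (-0.981), Clock (-0.977), Cldn1 (-0.961) and Plin2 (-0.958). These are descriptions over 10 libraries that share the split. Timeless, which encodes a replication fork protein with a debated clock role, had 2.66 FPKM in SG 3 and 2.73 in SHAM 2, 1.19 to 1.33 in the other 3 high libraries and 0.415 to 0.796 in the low ones. As for Dbp, SG 3 and SHAM 2 stood above the rest of the high side. The low-side mean of Timeless was 0.559 FPKM, so it met the filter of 1 FPKM only through the high side. Plin2, which coats lipid droplets, had 28.3 to 35.9 FPKM on the low side, 4.10 in SHAM 2, 4.80 in SG 3 and 7.69 to 19.6 in the other high libraries. Sphk2, a sphingosine kinase gene next to Dbp, stood at -0.43 ± 0.11 (SE, edgeR adjusted p = 0.0857), opposite in sign to Dbp.

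Genes of cholesterol synthesis made up the largest called group among the 37 lists. Of 25 tested members 21 rose, 0 fell and 4 did not pass, 22 did not overlap between the sides, and the median log2 fold change was 2.12. Among all genes 1.15% rose, and 2.15% had the high side above the low without overlap. Msmo1, a sterol C4 methyl oxidase, had 193 FPKM in SG 1, 124 in SG 3, 98.3 in SHAM 1, 57.0 in SHAM 2 and 99.2 in SHAM 3. On the low side it had 16.5 in SG 2, 15.9 in SG 4, 12.6 in SG 5, 9.63 in SHAM 4 and 4.23 in SHAM 5 (log2 fold change 3.29 ± 0.40 SE, edgeR adjusted p = 0.00401). SHAM 2, the library with the most Dbp, was the lowest of the high side here. Mvk, mevalonate kinase, had 13.1, 14.1, 10.2, 12.6 and 9.16 FPKM in SG 1, SG 3, SHAM 1, SHAM 2 and SHAM 3 against 4.11, 4.40, 4.03, 3.38 and 2.84 in SG 2, SG 4, SG 5, SHAM 4 and SHAM 5 (1.64 ± 0.14 SE, edgeR adjusted p = 0.000858).

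Fdft1, squalene synthase, had 58.2 to 105 FPKM on the high and 6.29 to 25.7 on the low side, and Ebp, a sterol isomerase, 48.0 to 82.6 against 18.1 to 32.3. Their log2 fold changes were 1.902 ± 0.21 and 1.24 ± 0.16 (SE, edgeR adjusted p = 0.00263 and 0.00463). Another 4 members, picked for their roles with their values already known, were the synthase Hmgcs1 (2.50 ± 0.41), squalene epoxidase Sqle (3.24 ± 0.55), the isomerase Idi1 (3.13 ± 0.54) and Srebf2, the transcription factor of the pathway (1.06 ± 0.17), all with SE and edgeR adjusted p from 0.0134 to 0.0188. Hmgcs1 stood at 411, 315, 203, 91.6 and 180 FPKM in SG 1, SG 3, SHAM 1, SHAM 2 and SHAM 3 and at 48.8, 58.6, 57.4, 29.0 and 19.3 in SG 2, SG 4, SG 5, SHAM 4 and SHAM 5. Its highest library, SG 1, held 21.8 FPKM of Dbp, against 83.6 in SHAM 2, its lowest on the high side.

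Among the 4 members that did not pass were Sc5d (1.07) and Nsdhl (0.82), enzymes of the late pathway, and Insig1 (0.68), a brake on SREBP processing, with edgeR adjusted p-values of 0.0813 to 0.356. Insig1 differed from the rest in its order, with 272 FPKM in SG 1, 25.6 in SG 3 and 111 in SHAM 4. Its mean FPKM was 132 on the high and 36.8 on the low side, a wider gap than the count-based 0.68, and its log2 difference was 1.99 in limma and 2.58 with only reference isoforms summed. With 1 library left out 16 to 21 members were called higher, and without both SG 2 and SHAM 5 the count was 14. With only reference isoforms summed 10 of 24 members were called higher, within SG libraries 8 of 25 and within SHAM libraries 0 of 25. With log2 Dbp as a continuous term in place of the sides 5 of 25 were called higher. A sterol regulatory element spelled TCACNCCAC, searched on both strands after the data were seen, was found in 0 of 14 windows of called members and in 1.12% of all windows.

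**Figure D3:**
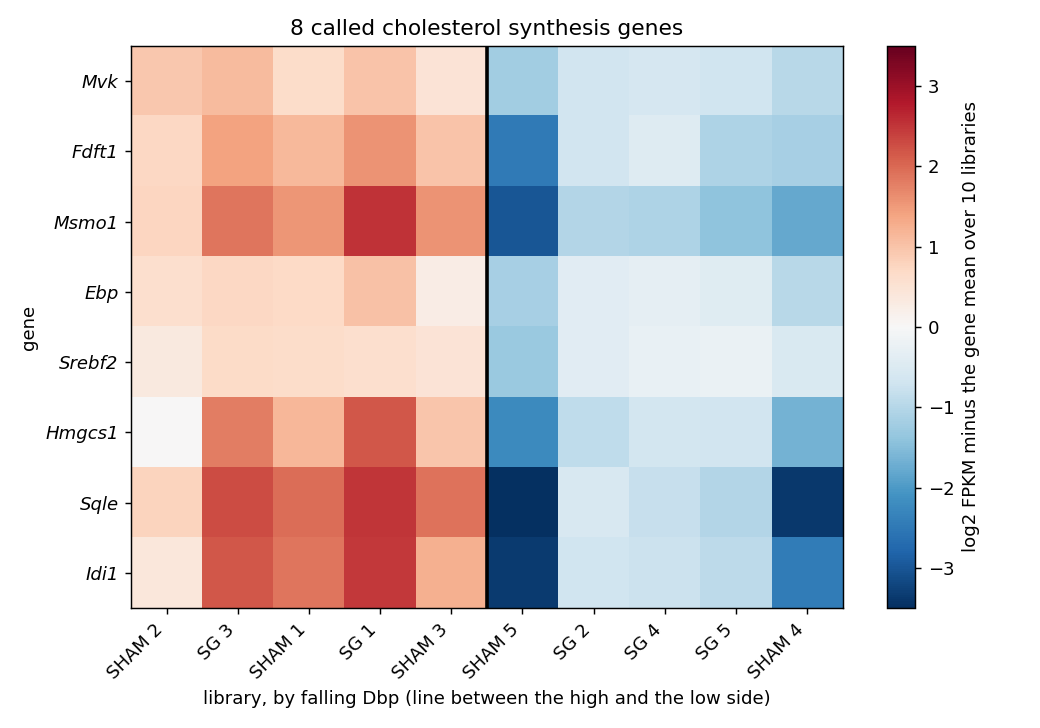
Colours give the log2 FPKM of 8 called cholesterol synthesis genes (rows) minus each gene's mean over the 10 libraries (columns, by falling Dbp). The 5 high libraries lie left of the black line and the 5 low libraries right of it. Values left of the line are above those right of it for Mvk, Fdft1, Msmo1 and Ebp, and SHAM 5 is the lowest for each of these 4.

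Fatty acid synthesis genes were less uniform. Of 21 tested members 2 rose in edgeR (Acss2 and Lpin2), beside 1.15% of all genes, 0 fell and 19 did not pass. The median was 0.56, with 14 at an unadjusted p under 0.05. DESeq2 called 9 higher and 2 lower, beside 400 and 424 of all 10988 genes. Limma called 2 higher, and edgeR without both SG 2 and SHAM 5 called 1, Acss2. Acss2, which makes acetyl-CoA from acetate, had 17.0 to 40.6 FPKM on the high and 4.33 to 10.2 on the low side (2.12 ± 0.26 SE, edgeR adjusted p = 0.00406). Lpin2, a phosphatidate phosphatase, had 20.4 to 42.5 against 6.30 to 14.4 (1.52 ± 0.28 SE, adjusted p = 0.0248), and an adjusted p of 0.0528 to 0.0607 without 1 of SG 5, SHAM 1, SHAM 2 or SHAM 4. Acly, which makes acetyl-CoA from citrate, stood at 1.12 ± 0.26 (SE, edgeR adjusted p = 0.0582) without overlap. Scd, a desaturase, went the other way: it had 0.329 to 1.88 FPKM in the high libraries and 155 in SG 2, 27.3 in SHAM 5, 11.6 in SHAM 4, 3.73 in SG 4 and 0.922 in SG 5. The sides of Scd overlapped through SG 5 (-5.31 ± 1.25 SE, edgeR adjusted p = 0.059), and the value moved with SG 2: it was -3.60 without SG 2 and -2.58 without both SG 2 and SHAM 5 (adjusted p = 0.0888 and 0.198). With 1 library left out the adjusted p was 0.0336 (without SG 5) to 0.132. Scd, with a high-side mean of 0.961 FPKM, met the filter of 1 FPKM only through the low side.

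Of 30 tested genes of fatty acid oxidation 1 fell in edgeR, Pdk4, beside 0.764% of all genes, 0 rose, and the median was -0.11. At an unadjusted p under 0.05 there were 10. DESeq2 called 1 higher and 4 lower, beside 400 and 424 of all 10988 genes. Limma called 1 lower, and edgeR without both SG 2 and SHAM 5 called 0. Pdk4, a kinase that shuts off glucose oxidation in fasting, had 15.9, 10.7, 12.6, 5.48 and 11.4 FPKM in SG 1, SG 3, SHAM 1, SHAM 2 and SHAM 3 and 49.1, 17.1, 32.1, 26.9 and 18.4 in SG 2, SG 4, SG 5, SHAM 4 and SHAM 5. The sides did not overlap (-1.27 ± 0.27 SE, edgeR adjusted p = 0.0405). The call ended with any 1 library left out other than SG 1 or SG 4 (adjusted p = 0.055 to 0.0857) and with the operation as a covariate (0.063). Fgf21, a hormone of the fasted liver, had 0.513 to 2.38 FPKM on the high and 3.04 to 37.8 on the low side and did not pass (-3.07 ± 0.82 SE, edgeR adjusted p = 0.0857). Without SHAM 4, which held the 37.8, it stood at -1.78. Acaa1a, a peroxisomal thiolase, stood at 0.41 ± 0.11 with overlap (adjusted p = 0.0931). Plin2, also on this list, did not overlap and did not pass (-1.83 ± 0.42 SE, edgeR adjusted p = 0.0567, and 0.0161 to 0.123 with 1 library left out).

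Of 18 tested members of the glycolysis and glycogen list 3 rose in edgeR (Slc2a2, Gys2 and Ugp2), 1 fell (Gckr) and 14 did not pass, with a median of 0.10. Among all genes 1.15% rose and 0.764% fell. Without both SG 2 and SHAM 5 edgeR called 0 of the 18. Gckr encodes the protein that holds glucokinase inactive in the nucleus, and it had 9.08, 20.6, 6.23, 12.1 and 9.49 FPKM in SG 1, SG 3, SHAM 1, SHAM 2 and SHAM 3 against 45.9, 36.5, 36.2, 40.5 and 36.6 in SG 2, SG 4, SG 5, SHAM 4 and SHAM 5. The low libraries were nearly level and none of the high ones came near them (-1.86 ± 0.27 SE, edgeR adjusted p = 0.00887). Gckr passed with any single library left out, but stood at an adjusted p of 0.0509 without both SG 2 and SHAM 5, of 0.125 with log2 Dbp as the term, and at -0.96 (adjusted p = 0.434) with only reference isoforms summed. Gys2, liver glycogen synthase, had 28.1 to 40.7 FPKM on the high and 19.6 to 23.5 on the low side (0.72 ± 0.12 SE, adjusted p = 0.0145). Slc2a2, the glucose transporter GLUT2, had 182 to 273 against 52.1 to 132 (1.10 ± 0.22 SE, adjusted p = 0.0316), and Ugp2, which makes UDP-glucose, 118 to 154 against 49.6 to 95.4 (0.84 ± 0.18 SE, adjusted p = 0.044). Slc2a2 passed with SG 2 or SHAM 4 left out and had an adjusted p of 0.0503 to 0.0742 without any other 1 library. Ugp2 did not pass without any 1 library (0.056 to 0.0919) or with the operation as a covariate (0.0674).

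The 8 smallest p-values among genes that rose without overlap belonged to Lmo7, Mvk, Erg28, Epm2a, Fdft1, F11r, Pank3 and Map2k3. Lmo7, a LIM domain protein of cell junctions, came first, with 7.53, 6.80, 7.53, 9.14 and 8.76 FPKM in SG 1, SG 3, SHAM 1, SHAM 2 and SHAM 3 and 2.18, 2.45, 3.03, 1.94 and 2.62 in SG 2, SG 4, SG 5, SHAM 4 and SHAM 5. The 5 values on each side lay close together, and the difference of 1.71 ± 0.13 (log2, SE) had an adjusted p of 0.000637 in edgeR. Erg28, a scaffold of sterol synthesis enzymes, had 23.4 to 40.3 FPKM against 9.65 to 15.0 (1.51 ± 0.14). Epm2a, the glycogen phosphatase laforin, had 1.83 to 3.08 against 0.427 to 0.973 (2.01 ± 0.22). It met the filter of 1 FPKM only through the high side. Pank3, which starts coenzyme A synthesis, stood at 0.87 ± 0.10, the p38 kinase activator gene Map2k3 at 0.85 ± 0.10 and the junctional adhesion gene F11r at 0.69 ± 0.08 (SE). The edgeR adjusted p-values of these 8 genes were 0.000637 to 0.0029.

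The 8 smallest among genes that fell without overlap were those of Pnkd, Loxl4, Acpp, Cd93, Kynu, Tubb2a, Asap2 and Col4a4 (edgeR adjusted p from 0.000858 to 0.00299). Kynu, kynureninase of tryptophan breakdown, had 18.4, 25.9, 15.4, 17.2 and 14.4 FPKM in SG 1, SG 3, SHAM 1, SHAM 2 and SHAM 3 and 52.1, 80.1, 84.1, 45.6 and 55.4 in SG 2, SG 4, SG 5, SHAM 4 and SHAM 5 (-1.83 ± 0.18 SE on the log2 scale). Acpp, an acid phosphatase, had 0.255 to 0.858 against 2.61 to 5.05 FPKM (-3.13 ± 0.30), and Tubb2a, a beta tubulin, 2.72 to 5.42 against 13.9 to 19.4 (-1.84 ± 0.21). Neither overlapped. Loxl4, a collagen cross-linking oxidase, stood at -1.14 ± 0.11, the Arf regulator gene Asap2 at -1.12 ± 0.13 and the basement membrane collagen gene Col4a4 at -0.995 ± 0.12 (SE). Cd93, a receptor of endothelial cells, had 3.08 to 3.68 FPKM on the high and 5.30 to 6.08 on the low side (-0.77 ± 0.07 SE). For Pnkd the FPKM differed less than the counts, with means of 17.9 and 30.3 FPKM beside a log2 fold change of -1.32 ± 0.11 (SE).

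Markers of cell types other than hepatocytes did not pass in edgeR. DESeq2 called 1 marker each of endothelial cells, T and NK cells, pancreatic acinar cells and adipocytes, and limma 1 of T and NK cells, of 11, 2, 1 and 3 tested, among which 5, 2, 1 and 2 had an unadjusted edgeR p under 0.05. Among all 10988 genes DESeq2 called 824 and limma 169. The 11 endothelial markers tested had a median log2 fold change of -0.44 and were all negative, with 0 passing in edgeR or limma. The smallest p-values were those of Oit3 (-0.47 ± 0.14), Cdh5 (-0.83 ± 0.27), Tek (-0.48 ± 0.16) and Stab1 (-0.43 ± 0.15), and the summed level was 99.6 to 142 FPKM on the high and 131 to 186 on the low side. The 14 macrophage and Kupffer cell markers tested had a median of -0.65 and were all negative, with 0 passing in edgeR, DESeq2 or limma and 5 at an unadjusted edgeR p under 0.05. Cd68 (-0.85 ± 0.31), C1qa (-0.74 ± 0.30), C1qb (-0.76 ± 0.31) and Clec4f (-0.82 ± 0.34) had the smallest p-values. The macrophage median was -0.15 without both SG 2 and SHAM 5, and the endothelial median -0.30. The part of these markers in the called genes, Cd93 among them, was not tested. In bulk liver, fewer cells of a type and less RNA per cell cannot be told apart. Hepatocyte markers had a median of 0.02, with 0 of 11 passing in edgeR, DESeq2 or limma and 0 at an unadjusted p under 0.05.

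Of 16 tested immediate early genes, which cells switch on within minutes of a stimulus, 15 lay below 0 on the log2 scale (median -0.60), and 0 passed in edgeR or limma, with 5 in DESeq2 and 7 at an unadjusted edgeR p under 0.05. Among all 10988 genes 824 passed in DESeq2 and 1939 had such a p, here and for the interferon list below. Atf3, a stress-induced repressor, stood at -2.19 ± 0.49 (SE, edgeR adjusted p = 0.0501), with 1.29 to 2.94 FPKM on the high side and 1.88 in SG 4 against 5.62 to 13.8 in the other low libraries. Without SG 4 its adjusted p was 0.0105 and without SHAM 3 it was 0.0478, and without any other 1 library it did not pass (up to 0.116). Btg2, Dusp1 and Fos stood at -0.91 ± 0.22, -1.26 ± 0.32 and -1.18 ± 0.35 (SE, edgeR adjusted p from 0.0617 to 0.111). Fos, with a high-side mean of 0.753 FPKM, met the filter of 1 FPKM only through the low side. Interferon response genes had a median of -0.88 over 32 members, with 0 passing in edgeR or limma, 3 in DESeq2 and 11 at an unadjusted edgeR p under 0.05, and the median was 0.02 without SHAM 5. Irf1, an interferon-induced transcription factor, stood at -1.16 ± 0.28 and the peptide transporter gene Tap1 at -1.17 ± 0.28 (SE, edgeR adjusted p = 0.0649 for each), both without overlap, beside Ifit2 (-1.28 ± 0.46) and Bst2 (-0.46 ± 0.17). With 1 library left out the adjusted p was 0.0475 (without SG 5) to 0.127 for Irf1 and 0.0491 (without SG 4) to 0.137 for Tap1. Without both SG 2 and SHAM 5, Irf1 stood at -0.81 (adjusted p = 0.247), Tap1 at -0.63 (0.127) and Ifit2 at -0.54 (0.504).

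Among the remaining lists, single members passed in 3, each called higher, beside 1.15% of all genes. In the heat shock and temperature list 1 of 17 members was called higher. Rbm3 (0.49 ± 0.20), Hspb1 (0.87 ± 0.43) and Hsf1 (0.11 ± 0.11), of the same list, did not pass, and the list median was -0.003. Of 17 NRF2 targets Gclm, a subunit of the enzyme that starts glutathione synthesis, rose with 83.9 to 117 FPKM against 57.4 to 69.9 (0.64 ± 0.14 SE, edgeR adjusted p = 0.0474), and did not pass without any 1 library (0.056 to 0.109) or with the operation as a covariate (0.0576). Nfe2l2, Txnrd1 and Ftl1 stood at -0.59 ± 0.21, -0.42 ± 0.18 and -0.48 ± 0.21, and the list median was -0.30. In the cell cycle list the member called was Wee1. The 26 lists with tested members but without a call held 418 memberships, of which 79 had an unadjusted p under 0.05 in edgeR and 32 passed in DESeq2 and 2 in limma. Beside them, 1939 of all 10988 genes had such a p, 824 passed in DESeq2 and 169 in limma on log2(FPKM + 0.5). The edgeR and DESeq2 counts of these lists are near those shares. Medians of glucocorticoid response (0.19), gluconeogenesis (0.14), bile acid synthesis and transport (0.05), urea cycle and amino acid breakdown (0.18), the unfolded protein response (0.07), nuclear oxidative phosphorylation (0.02) and cytosolic ribosomal proteins (-0.01) were close to that of all genes.

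**Figure D4:**
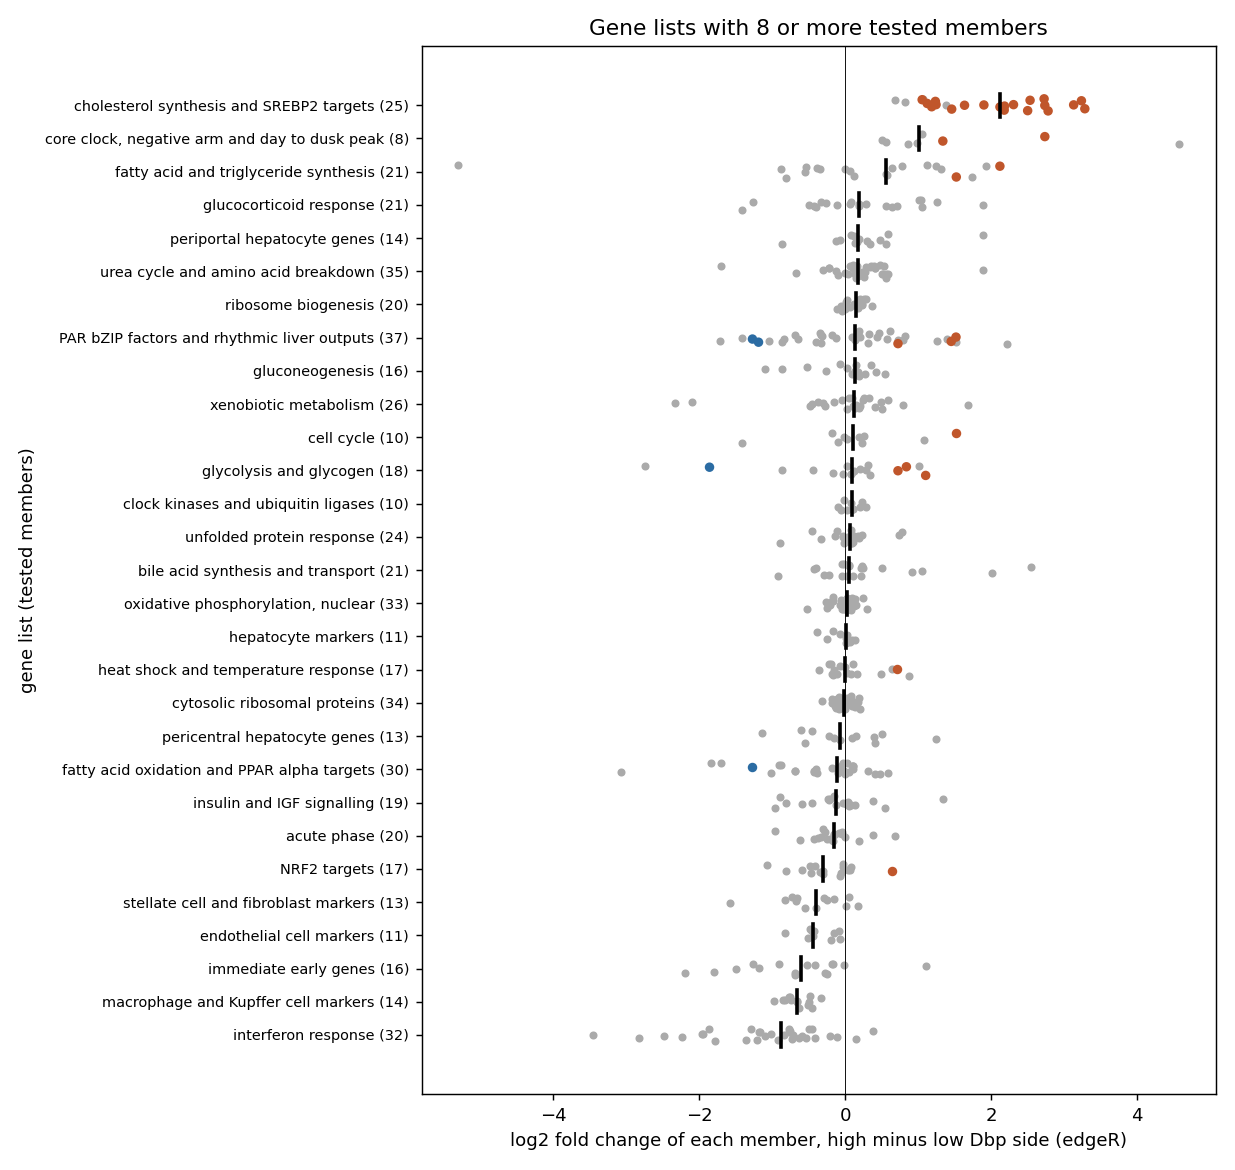
Each point is the log2 fold change (x axis, high minus low Dbp side, edgeR) of 1 tested member of the 29 lists with 8 or more tested members (y axis), with orange and blue for members called higher and lower and grey for those not called. Black bars are list medians, the highest at 2.12 for cholesterol synthesis and the lowest at -0.88 for interferon response.

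Among 39554 transcripts tested on their own, 15 differed between the sides (edgeR, 0.0379%), 5 higher (0.0126%) and 10 lower (0.0253%). The count was 7 without SG 1 or SG 4, 8 without SG 3 or SHAM 5 and 9 without SG 2. Of 6285 intergenic assembled transcripts 1 passed (0.0159%). That transcript, MSTRG.20221.1, is a single exon at chr6:128466404-128473493 on the plus strand, and it was listed at 0 in all 5 high libraries and at 7.06, 9.22, 10.3, 9.68 and 5.76 FPKM in SG 2, SG 4, SG 5, SHAM 4 and SHAM 5. Against an assumed floor of 3 counts per library it was listed at least 1730-fold higher on the low side (edgeR adjusted p = 0.00229). A transcript had to be above 0 in 5 or more libraries to be tested. At 0 in all 5 high libraries, this transcript could enter only by being present in all 5 low ones. Its separation was thus fixed by the filter, and its p-value is no support. Its left end is the same base as that of MSTRG.20222.1, an isoform of Clmn on the minus strand at chr6:128466404-128567198. Clmn encodes calmin, an actin-binding membrane protein.

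The long Clmn isoform had 12.4 to 18.8 FPKM on the high side and 0.128, 0.240, 6.80, 0.250 and 5.41 in SG 2, SG 4, SG 5, SHAM 4 and SHAM 5. The reference isoform ENSRNOT00000065529, which ends at base 128473570 and so does not reach the intergenic transcript, had 4.01 to 6.38 FPKM on the high and 4.92 to 14.3 on the low side. The gene Clmn rose by the test (1.37 ± 0.17 SE, edgeR adjusted p = 0.00463), by less in FPKM (means of 19.5 and 12.4), and stood at -0.92 when only reference isoforms were summed. Counts of the Clmn isoforms and of the opposite-strand transcripts together were 238 ± 32.8 CPM (counts scaled to the library total) on the high and 164 ± 34.1 CPM on the low side (SD, n = 5). No source used here says whether the library kit marks strand, so reads of Clmn and of the transcript opposite to it cannot be told apart.

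**Figure D5:**
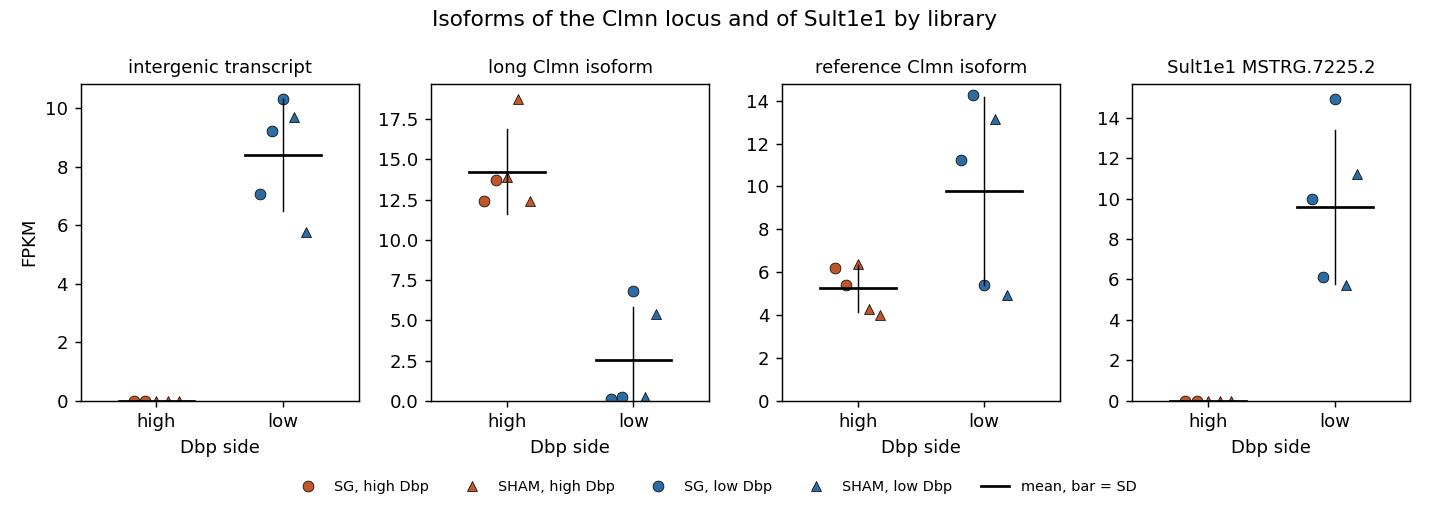
FPKM (y axes, from 0) in the high and low Dbp libraries (x axes) of the intergenic transcript MSTRG.20221.1, the long isoform MSTRG.20222.1 and the reference isoform of Clmn, and an isoform of Sult1e1. Circles are SG and triangles SHAM, with mean and SD of 5 libraries. The intergenic transcript and the Sult1e1 isoform are at 0 in every high library, and the long Clmn isoform is at 12.4 FPKM or more there.

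Besides the intergenic transcript, 4 isoforms of annotated genes were listed at 0 in all high libraries and passed, those of Top3b, Sult1e1, Rapgef4 and RT1-CE4. The Sult1e1 isoform MSTRG.7225.2 (Sult1e1 is the estrogen sulfotransferase) had 9.99, 6.11, 14.9, 5.72 and 11.2 FPKM in SG 2, SG 4, SG 5, SHAM 4 and SHAM 5, at least 374-fold over the floor of 3 counts (edgeR adjusted p = 0.00942). The gene as a whole did not follow it, with means of 237 and 245 FPKM (log2 fold change -0.05 ± 0.26 SE, edgeR adjusted p = 0.949). The isoform MSTRG.5376.5 of Top3b, a topoisomerase gene, had 1.99 to 3.74 FPKM on the low side (at least 212-fold, adjusted p = 0.00437). The calls of the other 2 did not last: with 1 library left out the Rapgef4 isoform passed only without SHAM 4 (adjusted p = 0.0461, otherwise 0.0509 to 0.128), and that of RT1-CE4 only without SHAM 2 or SHAM 3 (otherwise 0.0541 to 0.128). RT1-CE4 belongs to the class I histocompatibility family, whose near copies can share reads. An isoform at 0 in an assembled table can be a failed estimate. For these 4 and for the intergenic transcript the value is only a listing, and the filter let them in only through the low side.

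In edgeR no other non-coding transcript passed. Among all 39554 transcripts DESeq2 called 1052 and limma 41, the backgrounds for the counts that follow. The 29962 tested transcripts outside the kinds below held 2747 at an unadjusted edgeR p under 0.05. Of those 29962, DESeq2 called 836 and limma 35. Of the 6285 intergenic transcripts limma called 3 and DESeq2 126, with 457 at an unadjusted edgeR p under 0.05, and of 21 annotated non-coding transcripts edgeR and limma called 0 and DESeq2 1, with 1 at an unadjusted p under 0.05. Of 2551 intronic transcripts 0 passed in edgeR, 3 in limma and 60 in DESeq2, with 214 at an unadjusted edgeR p under 0.05, and of 735 antisense transcripts 0 passed in edgeR and limma, 29 in DESeq2, with 80 at an unadjusted p under 0.05. Among the 5 smallest p-values on the higher side were those of the intergenic MSTRG.19967.1 (1.69 ± 0.22 SE), MSTRG.10615.1 (3.00 ± 0.41), MSTRG.2505.1 (2.44 ± 0.35) and MSTRG.584.1 (1.89 ± 0.33). On the lower side, besides MSTRG.20221.1, stood transcripts in introns of Vom2r37 (-4.23 ± 0.63), Kynu (-2.02 ± 0.32) and Stard13 (-1.01 ± 0.18) and the intergenic MSTRG.17155.1 (-3.99 ± 0.67), with edgeR adjusted p-values of 0.0687 to 0.126.

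Within each operation alone few genes passed, 16 in the 5 SG libraries (0.146%, 12 higher or 0.109% and 4 lower or 0.0364%) and 3 in the 5 SHAM libraries (0.0273%, all lower, edgeR). All 210 genes called over both operations had the same direction within SG and within SHAM, where sides of 2 and 3 libraries are compared and the libraries are those of the main comparison. This was close to fixed in advance, because the genes were chosen on these libraries and 182 of them did not overlap between the sides. Arntl stood at -3.25 within SG and -2.83 within SHAM, Per3 at 2.85 and 2.63, Mvk at 1.67 and 1.72, and Slc2a2 at 0.65 and 1.70. Of these only Mvk within SG passed (edgeR adjusted p = 0.0394, and 0.089 within SHAM). Within SG and SHAM the edgeR adjusted p was 0.353 and 0.197 for Arntl, 0.161 and 0.225 for Per3, and 0.411 and 0.116 for Slc2a2. A test of whether the difference between sides itself differed between operations called 1 gene, Ndufa1 (0.0091%), with 582 at an unadjusted p under 0.05 in edgeR. Ndufa1, a subunit gene of respiratory complex I, was listed at 0 FPKM in SHAM 1, SHAM 2 and SHAM 3 and had 34.9, 14.8, 15.6, 13.5 and 17.6 FPKM in SG 1 to SG 5, 15.1 in SHAM 4 and 10.1 in SHAM 5 (edgeR adjusted p = 0.0407). With 1 library left out this test called 0 to 7 genes, 0 without SG 2, SG 4 or SHAM 3 and 7 without SHAM 5.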

How the data were processed

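There were 10 rat liver RNA libraries, and the authors deposited 1 isoform table with estimated counts and FPKM for each library. Tools listed in the submitters' processing notes are StringTie 1.3.4, HISAT2 2.0.4, FastQC 0.10.1 and cutadapt 1.9, with the rat build Rnor 6.0. FPKM is length-corrected, so levels can be set side by side between genes. Strandedness and the collection hour are not given in the sources used here.

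Isoforms with a gene name and class code =, c, j or o were summed per gene. Estimated counts were rounded to whole numbers and tested with edgeR 4.0.16 (TMM, quasi-likelihood, side as the term, R 4.3.3) in 10988 genes with a mean of at least 1 FPKM, without Dbp, and in 39554 transcripts that averaged 0.1 FPKM or more and were detected in 5 or more libraries. P-values were adjusted by Benjamini-Hochberg over all features, with a threshold of 0.05. Totals were 65824088 to 92110190 estimated counts per library. Alternatives were DESeq2 1.42.0, limma 3.58.1 on log2(FPKM + 0.5) or log2(FPKM + 0.1), other filters and scalings, the operation or log2 Dbp as a term, a replicate block and left-out libraries. The scripts were tested on simulated data. Library measures used exact permutation tests over 252 splits.

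Members and lists were chosen with earlier results of these data known. Named genes were all tested core clock genes and clock kinases, the 8 called genes with the smallest p in each direction without overlap, up to 4 members with the smallest p in each other list described, Sphk2 beside Dbp, and the 10 genes most and 5 least correlated with Dbp. Named non-coding transcripts were the 5 smallest p in each direction. Hmgcs1, Sqle, Idi1, Srebf2, Insig1, Clmn, Hlf and the isoforms listed at 0 were added after their values were seen. Mitochondrially encoded mRNAs are not analysed here. Some genes that the rule names are not reported here. RefSeq symbols matched 15825 of 20350 gene names.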

Additional observations from a re-analysis of the deposited data

Results flagged for a closer look

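Each side holds 5 libraries, and in 19 of 256 groups of 5 looked at, 1 library lay apart from the other 4 by a gap of more than 0.71 of the group's whole range. Chance flags about 1 in 20 groups. On the high side these were SG 3 for Npas2 (0.146 FPKM, others up to 0.039), Gsk3b (13.057, others up to 10.601) and Cdh5 (5.485, others up to 3.788), SHAM 2 for Irf1 (3.403, others from 5.721) and Zfyve9 (12.855, others up to 8.524), SHAM 3 for Tef (12.262, others from 20.821) and SG 1 for MSTRG.17155.1 (0.133, others up to 0.071). On the low side SG 5 lay above the rest for Erg28 (15.006 FPKM), Hsf1 (5.396), MSTRG.5376.5 (3.736) and Epm2a (0.973), the last through its isoform ENSRNOT00000061930 (0.973). SG 2 lay above the rest for Scd (155.001), Oit3 (12.386) and MSTRG.17155.1 (3.247), and below them for Cldn1 (17.028, others from 23.73). SHAM 4 lay above the rest for Fgf21 (37.793) and Insig1 (110.616), and SHAM 5 for Ifit2 (15.747).

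The difference between sides itself differed between the operations for Ndufa1, by 11.85 on the log2 scale (SG minus SHAM, edgeR adjusted p = 0.0407). The gene was listed at 0 in all 3 SHAM libraries of the high side, so this fitted value depends on the prior count and is no measured fold.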

How the results depend on the processing

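Of 2243 recomputed values of 99 named genes, 1898 kept direction and side of the threshold, 268 no longer passed, 57 newly passed and 20 changed sign; the cause was not tested. Against 210 genes (126 higher, 84 lower), DESeq2 called 824 (400 higher, 424 lower), reference isoforms alone 39 (23, 16), the fit without both SG 2 and SHAM 5 76 (45, 31), SG libraries alone 16 (12, 4) and SHAM libraries alone 3 (0, 3), the last 2 with fewer samples. No filter gave 51 lower genes and the operation as covariate 53. With 1 library left out, genes numbered 89 to 182 (53 to 112 higher, 36 to 88 lower), transcripts 7 to 17 (1 to 8, 4 to 12) and genes differing between operations 0 to 7. Against 15 transcripts, DESeq2 called 1052 (555 higher, 497 lower), limma 41 (23, 18), a mean of at least 1 FPKM 28 (16 higher), and the operation as covariate 12 higher.

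Same-numbered SG and SHAM libraries correlated at 0.04, -0.209, -0.014, 0.004 and 0.142, in log2 CPM after subtracting the mean of each operation. SG 3 and SHAM 2, with different numbers on the same Dbp side, stood at 0.249. The values showed no clear pairing by number, but whether the numbers mark a pair or a batch cannot be told from them. With the replicate number as a block, where only number 2 has both sides, 17 genes (11 higher, 6 lower; 2 of the 210) and 82 transcripts (33, 49) passed.

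Sign changes, all in genes that did not pass apart from Clmn, were log2 values of Cry1 (0.48 with the block, 0.29 in SHAM alone), Cry2 (-0.80, reference isoforms), Csnk1d (0.23 with the block, 0.0035 with log2 Dbp), Btrc (0.15 with the block, 0.039 in SG alone), Csnk2a1 (-0.0008 without both, -0.007 in SG alone), Gsk3b (0.001 unfiltered, 0.015 with log2 Dbp, 0.11 without both, 0.12 in SG alone, -0.085 to 0.066 with 1 library left out), Nr1d1 (-0.039 to 0.899 with 1 left out), Prkaa1 (-0.01) and Hsf1 (-0.11) in SG alone, and Clmn (-0.92, reference isoforms). The unannotated share of counts differed by -0.37 to 0.153 percentage points with 1 left out. A gene's interval of 0.341 (median half-width, log2) limits what could be detected.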
